A study of Mus musculus with 2 samples.

Results

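Nuclei of the progenitor class of the fetal mouse testis that carried *Nr5a1* RNA were taken from 1 library, chosen by their *Nr5a1* UMIs and by 7 ranking genes. Barcodes with 2000 to 12000 RNA molecules (UMIs), under 10% mitochondrial UMIs and over 500 cuts in peaks were ranked by the UMI share of *Tacr3*, *Plcxd3*, *Adamts5*, *Ptpro*, *Col25a1*, *Tafa2* and *Adam23*, and the first 2500 were taken as progenitor nuclei. Of the 9833 barcodes, 5426 passed the filters, and 468 of the 2500 held at least 1 *Nr5a1* UMI and are called *Nr5a1*+ nuclei here. The other 2032 held none. Each *Nr5a1*+ nucleus was paired with the *Nr5a1*- progenitor nucleus of nearest UMI total, within 5%, and all of them found a partner. The median depth was 6868 UMIs in the *Nr5a1*+ nuclei and 6870 in their partners.

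The nuclei came from testes of mouse embryos at E14.5 that carried the *Nr5a1-cre* transgene and the *Rosa-tdTomato* reporter, and every group below shares both. RNA and open chromatin (ATAC, cuts by a transposase in accessible DNA) were read from the same nuclei by the 10X multiome assay, with 1 library for each. The number of embryos behind the library is unknown here, and any counts that the transgene may add to *Nr5a1* were not separated. No replicate stands behind any value, so each value has an exact 95% interval for counting error alone, and no test between animals was possible. The intervals take each UMI as independent, and since some genes put many UMIs into single nuclei, the number of nuclei with a UMI is given for many of them.

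NR5A1, also called steroidogenic factor 1, is a nuclear receptor that binds DNA as a monomer and switches on the genes of steroid synthesis. In the fetal testis it is known from Sertoli cells, which form the cords, and from Leydig cells, which make androgens between the cords. The mesenchyme between the cords, marked by another nuclear receptor, NR2F2, holds the progenitors of fetal Leydig cells.

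Chromatin around *Nr5a1* was more open in *Nr5a1*+ nuclei than in their partners, as described at the end, over a region used after values had been seen. The central 300 bases of a pair of its peaks, upstream of and inside the gene, are shown. Outside the starts, this pair had the largest excess of fragments in *Nr5a1*+ nuclei over partners among peaks annotated to *Nr5a1* or its antisense RNA. The pair was chosen by that excess, so its openness is a description. The bases are read from GRCm38.p6, the assembly of mm10, on the plus strand. The first is the centre of the peak 4327 bp upstream of the distal *Nr5a1* start (chr2:38718719-38719018), in an intron of the antisense RNA *Nr5a1os*, and the second the centre of the peak at -5237 bp from that start, where negative means into the gene (chr2:38709155-38709454), in an *Nr5a1* intron. Capitals mark matches to CAAGGNC, the core of the site that NR5A1 binds as a monomer, and to GATAA, the core that GATA factors bind, each searched on both strands.
Upstream peak: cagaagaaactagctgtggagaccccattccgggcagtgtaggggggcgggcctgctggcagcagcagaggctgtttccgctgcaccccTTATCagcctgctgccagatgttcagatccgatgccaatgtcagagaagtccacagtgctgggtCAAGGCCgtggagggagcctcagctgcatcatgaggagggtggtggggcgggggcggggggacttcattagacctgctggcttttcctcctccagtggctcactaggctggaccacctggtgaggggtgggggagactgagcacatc
Intron peak: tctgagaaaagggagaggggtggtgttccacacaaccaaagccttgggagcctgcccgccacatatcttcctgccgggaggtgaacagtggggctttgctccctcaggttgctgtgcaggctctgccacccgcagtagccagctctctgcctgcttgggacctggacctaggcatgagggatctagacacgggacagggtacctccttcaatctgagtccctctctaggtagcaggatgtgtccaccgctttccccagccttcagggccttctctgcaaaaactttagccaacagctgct
The upstream centre held 1 match to CAAGGNC on the plus strand and 1 to GATAA on the minus strand, and the intron centre held neither. A search for AGGTCA, the half-site shared by many nuclear receptors, which overlaps CAAGGNC where both occur, found no match in these 2 windows, and CAAGGNC was added after that. Among the 300-base centres of 109183 peaks, 30.5% held CAAGGNC, 33.6% GATAA and 22.5% AGGTCA. A match is a description of the letters and does not show that a factor was bound.

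Since the ranking genes and *Nr5a1* chose the nuclei, their values are a description. The ranking genes stood at 20233 counts-per-million of all UMIs (CPM) in the first nucleus and 4352 in the middle one. The last nucleus inside the limit of 2500 held 1252 CPM and the first outside held 1251 CPM, so the limit cuts through a continuous range. Most *Nr5a1*+ nuclei rested on little RNA: 364 held 1 *Nr5a1* UMI, 66 held 2, and 38 held 3 or more, with 8 as the highest. *Nr5a1*+ nuclei made up 13.1% of the 625 shallowest of the 2500 (10.6 to 16.0) and 25.2% of the 626 deepest (21.9 to 28.8). Along the ranking their share did not run in 1 direction, with 20.4% in the first 500 nuclei and 18.8% in the last 500, while *Nr5a1* stood at 37.95 CPM and 49.4 CPM in them. *Tacr3* was present in 302 *Nr5a1*+ nuclei and 275 partners, and *Plcxd3* in 179 and 213.

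*Nr5a1* RNA in the progenitor nuclei lay above its level in germ nuclei, which should lack it. Reference nuclei of other types were those outside the 2500 with the highest UMI share of fixed markers. After thinning each nucleus to 2000 UMIs, 7.08% of the 2500 progenitor nuclei held an *Nr5a1* UMI (6.11 to 8.16), against 0.8% of germ reference nuclei (0.097 to 2.86). The share was 55% in the Leydig reference (49.98 to 59.95), 20% in the Sertoli reference (16.2 to 24.3) and 4.67% in the surface epithelium reference (2.57 to 7.71). Unthinned, the progenitor nuclei held 18.7% and the germ nuclei 2.4%, at median depths of 6262 and 9722 UMIs. The level was 39.3 CPM in the progenitor nuclei (36.3 to 42.5), 464 CPM in the Leydig reference and 3.01 CPM in the germ reference. The share in progenitor nuclei thus lay between germ and Leydig nuclei and below Sertoli nuclei, with intervals that did not overlap these 3. The intervals of the surface epithelium, endothelial (3.33%, 0.406 to 11.5) and immune (2.5%, 0.063 to 13.2) references, the last 2 of 60 and 40 nuclei, overlapped that of the progenitor nuclei.

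**Figure D1:**
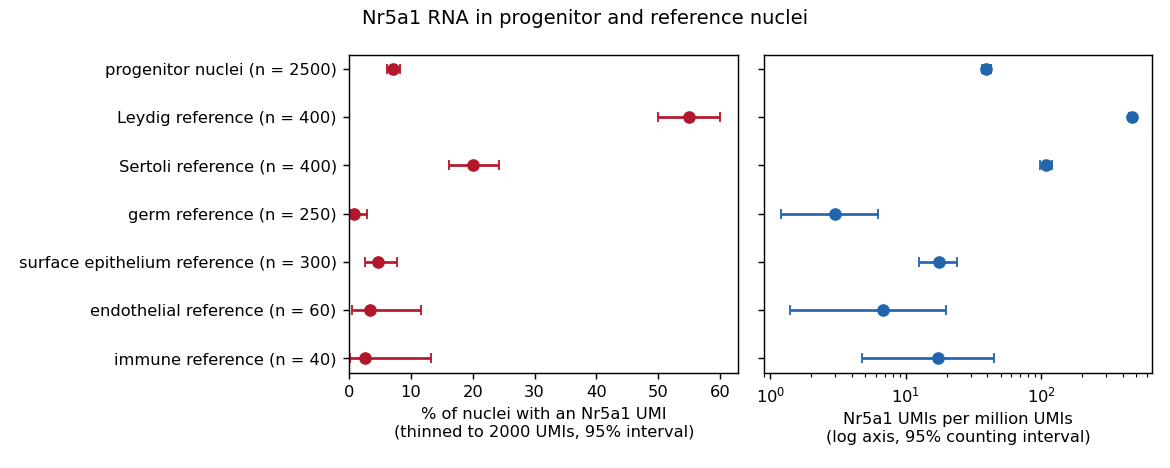
Left, share of nuclei with an Nr5a1 UMI after thinning to 2000 UMIs, with exact 95% binomial intervals; right, Nr5a1 CPM on a log axis, with 95% counting intervals. The 2500 progenitor nuclei lie at 7.08%, above the germ reference at 0.8% and below the Sertoli and Leydig references at 20% and 55%.

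*Cyp17a1* UMIs were present in every type, and *Nr5a1* did not stand in a fixed ratio to them. This gene, for the enzyme that makes androgen precursors, had a UMI in 74.4% of *Nr5a1*- partners, 70.8% of germ nuclei and 69.5% of Sertoli nuclei. Per 100 *Cyp17a1* UMIs there were 16.3 *Nr5a1* UMIs in the progenitor nuclei (14.9 to 17.7), 2.08 in germ nuclei (0.831 to 4.34), 9.38 in surface epithelium nuclei (6.57 to 13.0) and 20.1 in Leydig nuclei (19.0 to 21.3). The part of free RNA or doublets in the *Nr5a1* UMIs of single nuclei was not tested.

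The 4 Leydig markers, read as a check for doublets, were higher in *Nr5a1*+ nuclei. Together *Cyp11a1*, *Cyp17a1*, *Hsd3b1* and *Lhcgr* reached 694 CPM, against 313 CPM in the partners, a ratio of 2.22 (2.06 to 2.39). At least 1 such UMI was present in 89.3% of *Nr5a1*+ nuclei and 86.3% of partners. *Cyp17a1* was present in 358 *Nr5a1*+ nuclei and 348 partners and differed least, with 313.5 and 211 CPM (ratio 1.49, 1.35 to 1.64).

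The other 3 markers set the groups apart. *Lhcgr*, the receptor for luteinizing hormone, was at 133 CPM in *Nr5a1*+ nuclei and 23.3 CPM in partners, 5.70 times higher (4.47 to 7.36), with a UMI in 126 and 59 nuclei. *Hsd3b1*, an enzyme of progesterone synthesis, was 3.26 times higher (2.66 to 4.02), in 159 and 99 nuclei. *Cyp11a1*, which makes the first step from cholesterol to steroids, was 3.04 times higher (2.51 to 3.72), in 159 and 115 nuclei. In germ nuclei, which should lack them, *Cyp11a1* was at 39.1 CPM and *Hsd3b1* at 38.7 CPM, near the partners at 41.7 and 37.2 CPM, so the partners' values of both are read as background. *Lhcgr* was at 5.16 CPM in germ nuclei. All remained far under the Leydig reference, where *Lhcgr* was at 1296 CPM and *Cyp11a1* at 1596 CPM. None of these 3 markers was seen in 182 *Nr5a1*+ nuclei and 246 partners, while 10 or more of their UMIs were counted in 30 *Nr5a1*+ nuclei and in 0 of 468 partners, which allows a share of up to 0.785% there.

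The Leydig signal followed the number of *Nr5a1* UMIs. Wide gene sets of other cell types rose with it, while their short marker lists did not all rise, as given below. *Lhcgr* stood at 64.2 CPM in nuclei with 1 *Nr5a1* UMI, 174.9 CPM with 2 and 589 CPM with 3 or more, and had a UMI in 19.5%, 39.4% and 76.3% of them. The ratio of the 4 markers depended on where the ranking was cut, with 1.41 for the first 1500 nuclei and 4.29 for the first 3500, and it was 4.97 for nuclei with 2 or more *Nr5a1* UMIs.

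A wider measure of the same kind used genes and peaks picked outside the compared nuclei. The Leydig gene set held 470 genes at least 4 times higher in the Leydig reference than in the 1564 unpaired *Nr5a1*- nuclei, and the progenitor gene set held 968 genes at least 4 times higher in the latter, without *Nr5a1*, *Nr5a1os*, the ranking genes and the 4 markers. Leydig genes took 2.43% of UMIs in *Nr5a1*+ nuclei, 1.56% in partners and 15.4% in the Leydig reference, and the ratio of *Nr5a1*+ nuclei to partners was 1.56 (1.55 to 1.58). Progenitor genes took 17.8%, 19.85% and 2.09%, a ratio of 0.896 (0.892 to 0.899). All *Nr5a1*+ nuclei pooled lay 6.33% of the way from partners to Leydig nuclei on Leydig genes and 11.7% on progenitor genes.

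Chromatin, which took no part in choosing the nuclei beyond the minimum of cuts, moved in the same direction. The 375 peaks at least 4 times more open in the Leydig reference held 0.311% of cuts in *Nr5a1*+ nuclei and 0.223% in partners, a ratio of 1.39 (1.34 to 1.45), which fell to 1.26 when pairs were also matched on cuts. The 5798 progenitor peaks held 8.67% and 9.25%, a ratio of 0.937 (0.930 to 0.944). This placed the *Nr5a1*+ nuclei 7.24% and 7.11% of the way to Leydig nuclei. Cuts come in pairs from 1 fragment, so intervals on cuts are too narrow.

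The mean hid a small number of nuclei. Per nucleus, Leydig genes took a median of 1.48% of UMIs in partners, and 1.52%, 1.66% and 5.33% in nuclei with 1, 2 and 3 or more *Nr5a1* UMIs. The highest partner reached 4.63% and the highest *Nr5a1*+ nucleus 16.3%, which is within the Leydig reference (7.1% to 21.04%). The highest of the 1564 unpaired *Nr5a1*- nuclei, at 10.9%, lay within it too. Nuclei with 1 *Nr5a1* UMI lay 1.80% of the way on Leydig genes and 3.803% on Leydig peaks, those with 2 at 9.31% and 13.4%, and those with 3 or more at 36.2% and 31.1%. The Leydig set had ratios to partners of 1.16, 1.85 and 4.19 with 1, 2 and 3 or more UMIs. Sets of other types, made like it, rose too. The Sertoli set had 1.03, 1.75 and 2.56, and the germ set 0.968, 1.13 and 1.51.

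**Figure D2:**
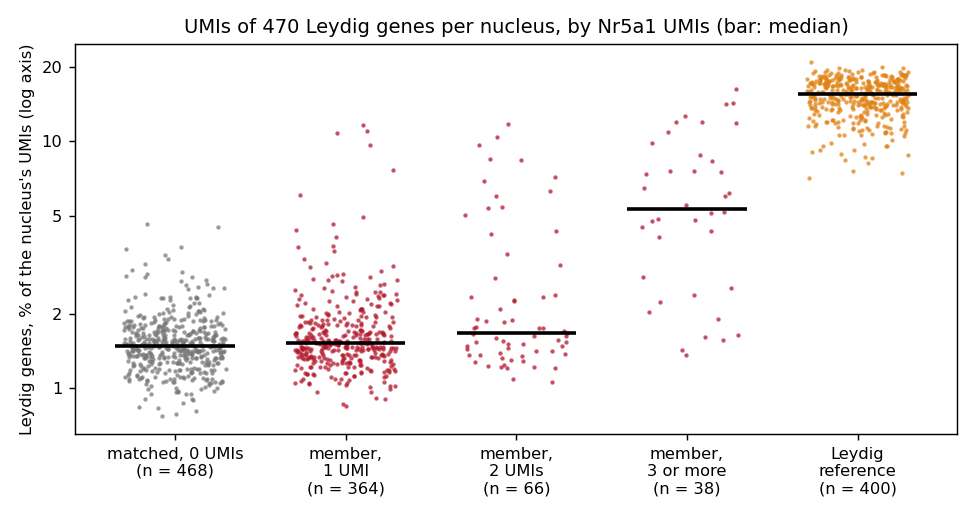
Share of each nucleus's UMIs that fell on the 470 Leydig genes (log axis) for partners, for Nr5a1+ nuclei by their number of Nr5a1 UMIs, and for the Leydig reference; each point is a nucleus and bars are medians. The median is 1.48% in partners, 1.52% with 1 UMI, 1.66% with 2 UMIs and 5.33% with 3 or more, and most nuclei with 1 UMI lie within the range of the partners.

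To describe these nuclei, sets were narrowed after the values had been seen to 253 genes that were also at least 4 times higher in Leydig than in Sertoli nuclei, and 317 genes the other way round. Nuclei above the 99th percentile of partners (1.74% of UMIs on the narrowed Leydig set) are called Leydig-rich. They were 54 of the 468 *Nr5a1*+ nuclei (11.5%, 8.79 to 14.8), against 25 of the 1564 unpaired *Nr5a1*- nuclei (1.60%). Of the nuclei with 1, 2 and 3 or more *Nr5a1* UMIs, 14 of 364 (3.85%), 14 of 66 (21.2%) and 26 of 38 (68.4%) were Leydig-rich. Another 6 *Nr5a1*+ nuclei (1.28%, 0.472 to 2.77) were Sertoli-rich by the same measure, and 0 were both. Of the partners 5 were Sertoli-rich, as the percentile sets, and of the 1564 unpaired *Nr5a1*- nuclei 11 (0.703%). The count of 6 is thus near the background share. On the ranking genes, Leydig-rich *Nr5a1*+ nuclei had a median of 2175 CPM, nearer to the limit of 1252 CPM. The median was 4900 CPM in *Nr5a1*+ nuclei of pairs with no Leydig-rich or Sertoli-rich nucleus, and 96.0 CPM in the Leydig reference.

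On progenitor genes Leydig-rich *Nr5a1*+ nuclei lay 62.7% of the way to Leydig nuclei, on Leydig peaks 41.8% and on progenitor peaks 52.2%, measures that were not used to call them Leydig-rich. *Nr2f2* was present in 36 of the 54 and in all 54 of their partners. Contractile markers, such as *Myh11* and *Mylk*, were at 77.2 CPM in them and 322.6 CPM in their partners (ratio 0.239, 0.16 to 0.35). The 6 Sertoli markers were at 63.6 and 59.1 CPM, a ratio of 1.08 (0.609 to 1.91). The wider gene sets of 5 other types, made like the Leydig set, were each higher in Leydig-rich nuclei than in their partners. Every set was made against the unpaired *Nr5a1*- nuclei alone, so a gene could belong to several sets. Sertoli reference nuclei held a median of 4.85% of UMIs on the Leydig set, against 1.47% in the unpaired *Nr5a1*- nuclei. A higher set value is thus not specific to its type. The Sertoli set of 531 genes had 2.54 (2.46 to 2.62), the germ set 1.52, the endothelial set 1.46, the immune set 1.43 and the surface epithelium set 1.40, and the erythroid markers had 1.74 (1.17 to 2.60). The part of these genes in the values of Leydig-rich nuclei was not tested.

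Values that bear on doublets were as follows. Leydig-rich nuclei held on average 0.752 times the cuts of their partners at equal UMIs, with medians of 3231 and 3282 cuts. The Leydig reference itself held fewer, with a median of 1837 cuts at a median of 8554 UMIs. A doublet score in the highest 10% of barcodes (Scrublet, on RNA) was found in 13.0% of Leydig-rich nuclei (5.37 to 24.9). In their partners it was found in 3.70% (0.452 to 12.75), an interval that overlapped. It was found in 1.0% of the *Nr5a1*+ nuclei of the 400 pairs with no Leydig-rich or Sertoli-rich nucleus and 2.14% of all partners. Places on an autosome covered by 3 or more fragments of 1 nucleus, which a single diploid nucleus outside replication should lack, were seen in 7 of 54 Leydig-rich nuclei and 13 of their partners, and in 53 of all 468 *Nr5a1*+ nuclei and 69 partners. Such places were seen in 3.25% of Leydig reference nuclei (1.74 to 5.49). The part of doublets in the Leydig-rich nuclei was not tested further.

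**Figure D3:**
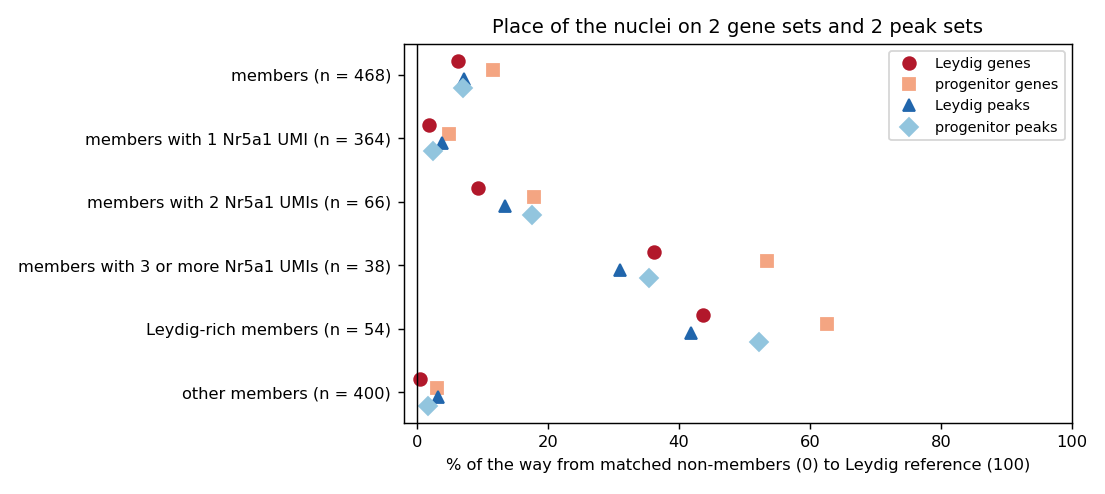
Place of Nr5a1+ nuclei (called members in the plot) between their own partners (0%) and the Leydig reference (100%) on Leydig and progenitor genes and peaks; other members are the nuclei of the 400 pairs without Leydig-rich or Sertoli-rich nuclei. Nuclei with 3 or more Nr5a1 UMIs lie at 31.1% to 53.4%, Leydig-rich nuclei at 41.8% to 62.7%, and other members under 4%.

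Leaving out the pairs with a Leydig-rich or Sertoli-rich nucleus on either side removed 68 pairs and left 400. In these, *Nr5a1*+ nuclei and partners were close on Leydig genes, with 1.60% and 1.52% of UMIs (ratio 1.05, 1.03 to 1.06), since the choice of pairs limits this value. Leydig peaks, which did not choose the pairs, kept a ratio of 1.18 (1.12 to 1.24). The 4 Leydig markers stood at 362 and 312 CPM, a ratio of 1.16 (1.06 to 1.27). *Lhcgr* was still at 45.8 CPM against 20.7 CPM (ratio 2.21, 1.60 to 3.08), with a UMI in 74 and 49 nuclei, and *Hsd3b1* had a ratio of 1.35 (1.04 to 1.75). *Cyp11a1* had a ratio of 1.21 (0.933 to 1.58) and *Cyp17a1* of 1.01 (0.901 to 1.14).

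Of the 13 genes of steroid synthesis, 11 had at least 100 UMIs over both groups, and 7 of these were at least 1.5 times higher in *Nr5a1*+ nuclei and 0 at least 1.5 times lower. Of these 7, 3 were the markers *Cyp11a1*, *Hsd3b1* and *Lhcgr*, and the other 4 were *Star*, *Fdx1*, *Fdxr* and *Scarb1*. The median log2 ratio over the 11, markers included, was 0.86, against 0.02 over the 7645 genes counted, of which 2.45% were at least 1.5 times higher and 1.6% lower. *Star*, which brings cholesterol into mitochondria, was at 32.3 and 15.4 CPM (ratio 2.10, 1.49 to 2.99). *Fdx1* and *Fdxr*, which pass electrons to the mitochondrial enzymes, had ratios of 2.0 and 1.82, and *Scarb1*, which takes up cholesterol, of 1.57. *Insl3*, a Leydig peptide hormone, was at 30.2 and 31.7 CPM, a ratio of 0.952 (0.717 to 1.26). It was at 24.5 CPM in germ nuclei (18.6 to 31.7), with a UMI in 20% of them against 17.95% of *Nr5a1*+ nuclei and 19.2% of partners, so these *Insl3* values are read as background. *Cyb5a* had 1.10 (0.803 to 1.51).

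Of 19 genes of cholesterol synthesis, 14 were counted, 5 were past 1.5-fold higher and 0 lower, with a median log2 ratio of 0.44. Of all counted genes 2.45% were higher and 1.6% lower. *Idi1*, of the early pathway, had a ratio of 2.04 (1.44 to 2.92), and *Hsd17b7*, *Lss*, *Dhcr7* and *Nsdhl* had 1.73, 1.71, 1.67 and 1.51. Of these 5, 2 (*Idi1* and *Lss*) were past 1.5-fold against the unpaired *Nr5a1*- nuclei, against 6 of the 7 steroid genes. Of all counted genes 1.94% were higher by that fold against the unpaired nuclei. In the 400 pairs the median log2 ratios of both lists came to 0.08 and 0.05, with 1 steroid gene (*Lhcgr*) past 1.5-fold higher and 1 cholesterol gene (*Sc5d*, ratio 0.653, 0.446 to 0.949) past it lower. There 0.878% of 6948 counted genes were higher and 1.24% lower by that fold.

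**Figure D4:**
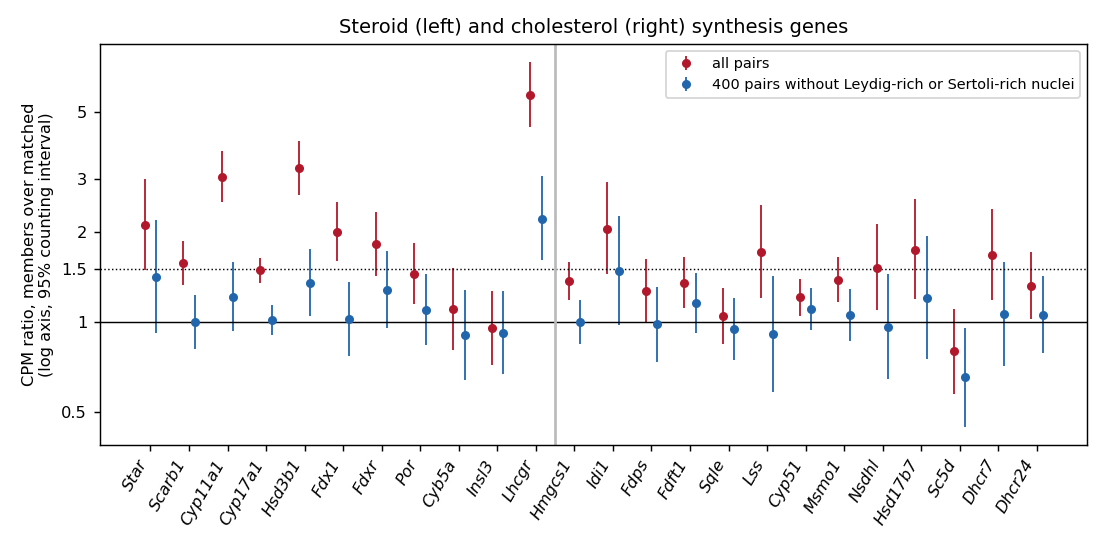
Ratio of CPM, Nr5a1+ nuclei over partners, for counted genes of steroid and cholesterol synthesis on a log axis with 95% counting intervals, in all 468 pairs and in the 400 pairs without Leydig-rich or Sertoli-rich nuclei; the dotted line marks 1.5-fold. Lhcgr is highest in both, at 5.70 and 2.21, and most of the other genes lie nearer to 1 in the 400 pairs.

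Of 10 listed transcription factors of Leydig cells, 7 were counted with a median log2 ratio of 0.11. It was -0.18 over the 6 counted in the 400 pairs. The summed list had a ratio of 0.933 (0.912 to 0.954) in all pairs. None of the 7 passed 1.5-fold, a count near that of all genes, of which 2.45% were higher and 1.6% lower, and so no result about the list. *Gata4*, a partner of NR5A1 on many promoters, was at 737 and 594 CPM (ratio 1.24, 1.17 to 1.32), and at a ratio of 1.17 (1.09 to 1.25) in the 400 pairs. *Gata6* had 1.06 (0.829 to 1.36), and *Zfpm2*, which binds GATA4, 0.809 (0.785 to 0.835).

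All 16 listed genes of the interstitial mesenchyme were counted, with a median log2 ratio of -0.13, and of -0.0135 in the 400 pairs. That 0 of the 16 passed 1.5-fold is again near the shares of all genes (2.45% higher and 1.6% lower). *Nr2f2* was at 497 CPM in *Nr5a1*+ nuclei and 559 CPM in partners, against 50.5 CPM in the Leydig reference, a ratio of 0.89 (0.832 to 0.951), and was present in 90.6% and 93.8% of nuclei. It was at 529 CPM (501 to 559) with 1 *Nr5a1* UMI and 506.5 CPM (445.5 to 573) with 2, which overlapped, and at 238 CPM (188 to 297) in the 38 nuclei with 3 or more, of which 26 were Leydig-rich. The ratio in the 400 pairs was 0.987 (0.918 to 1.06). After thinning, 98 of 177 progenitor nuclei with *Nr5a1* also held *Nr2f2* (55.4%, 47.7 to 62.8), against 64.7% of those without (62.7 to 66.7). *Pdgfra* and *Tcf21* had ratios of 0.921 and 1.02. *Ebf1*, an early B-cell factor, was at 629 and 461 CPM (ratio 1.36, 1.28 to 1.46), and at 1.31 (1.22 to 1.41) in the 400 pairs. In the unpaired *Nr5a1*- nuclei *Ebf1* was at 533 CPM, a lower ratio of 1.18 (1.12 to 1.24).

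Hedgehog genes, which carry the Sertoli signal to the interstitium, held 1 gene past 1.5-fold higher among 11 counted, where 2.45% of all genes were. It was *Cdon*, a coreceptor, at 413 and 250 CPM (ratio 1.65, 1.51 to 1.80), with 1237 CPM in the Leydig reference and a ratio of 1.28 (1.16 to 1.42) in the 400 pairs. *Hhip*, a target and inhibitor of the pathway, had 1.31 (1.22 to 1.42). The target *Ptch1* had 1.07 (1.02 to 1.12), while *Gli1* had 0.934 (0.775 to 1.12).

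Of the Notch genes, 6 were counted and 0 were past the fold, near the 2.45% and 1.6% of all genes. Their targets *Heyl* (34.4 and 50.5 CPM, ratio 0.682, 0.533 to 0.871) and *Hes1* (24.5 and 35.4 CPM, ratio 0.692, 0.515 to 0.927) were the lowest of them. Against the unpaired *Nr5a1*- nuclei their ratios were 0.834 (0.671 to 1.03) and 0.915 (0.704 to 1.18), and *Hes1* had 0.7765 (0.564 to 1.07) in the 400 pairs, all intervals that held 1. Of 4 counted genes of VEGF and PDGF signals, 1 was past 1.5-fold lower, the ligand *Pdgfc* at 23.6 and 39.0 CPM (ratio 0.605, 0.45 to 0.807). *Nrp1*, a coreceptor for VEGF, had 0.697 (0.63 to 0.771), and the ligand *Vegfa*, at 46.2 and 42.9 CPM, had 1.08 (0.852 to 1.36).

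The 21 counted cell cycle genes had a median log2 ratio of -0.24 and the 18 counted matrix genes of -0.18, against 0.02 over all genes. These medians came to -0.175 and -0.045 in the 400 pairs. In both lists 0 genes were past the fold, near the 2.45% higher and 1.6% lower of all genes. *Top2a*, which untangles replicated DNA, was at 272 and 339 CPM (ratio 0.804, 0.736 to 0.879), in 171 and 211 nuclei, and *Mki67* had 0.796 (0.72 to 0.881). Against the unpaired *Nr5a1*- nuclei *Top2a* had 1.04 (0.966 to 1.13) and *Mki67* 0.9865 (0.904 to 1.075). The summed list had 1.05 (1.02 to 1.08) there, so that it turned from lower to higher. Those nuclei were not matched on depth, with a median of 5978 UMIs against 6868 in the *Nr5a1*+ nuclei. The list summed to 1664 and 1987 CPM in all pairs, and to 1774 and 1968 CPM in the 400 pairs. Among the matrix genes *Col5a2* had 0.676 (0.619 to 0.739), and *Col1a2* 0.999 (0.944 to 1.06). The 9 early response genes were all under 100 UMIs, with 59 *Nr5a1*+ nuclei and 77 partners holding any.

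Markers of other cell types in the *Nr5a1*+ nuclei were at or under their level in partners, apart from the Leydig, Sertoli, erythroid and immune lists. The 6 Sertoli markers summed to 79.4 and 74.3 CPM (ratio 1.07, 0.895 to 1.28), with a UMI in 35.5% and 38.0% of nuclei. The wider Sertoli set of 531 genes had 1.28 (1.265 to 1.30), and 1.005 (0.99 to 1.02) in the 400 pairs. The wider germ, endothelial and immune sets had 1.045 (1.03 to 1.06), 1.03 (1.016 to 1.04) and 1.046 (1.03 to 1.06). The wider surface epithelium set had 0.967 (0.953 to 0.981). The erythroid markers were at 154 and 135 CPM (ratio 1.14, 1.005 to 1.30), with 168 CPM in unpaired *Nr5a1*- nuclei, and the immune markers at 16.9 and 14.8 CPM (ratio 1.14, 0.765 to 1.71). Contractile markers were at 197 and 246.5 CPM (ratio 0.798, 0.719 to 0.885), surface epithelium markers at 45.9 and 61.3 CPM (ratio 0.749, 0.603 to 0.928) and endothelial markers at 48.6 and 71.0 CPM (ratio 0.685, 0.557 to 0.841). The median log2 ratio of the 3 counted contractile genes was -0.30 in all pairs and -0.149 in the 400 pairs. The 1 counted surface epithelium gene had -0.273 and -0.183. Mesonephric markers had the lowest ratio of the lists with several genes, with 83.7 and 142 CPM (ratio 0.589, 0.506 to 0.685), and the same list had 0.605 in the 400 pairs. Germ markers had a ratio of 0.872 (0.631 to 1.20) and pericyte markers of 0.978 (0.79 to 1.21). *Itga8*, an integrin of the mesonephric list, had a UMI in 89 and 101 nuclei. *Pax8*, the marker of supporting-like cells, had no UMI in the *Nr5a1*+ nuclei and 7 UMIs in 2 partners.

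Across all genes, 187 of 7645 were at least 1.5 times higher in *Nr5a1*+ nuclei and 122 at least 1.5 times lower, apart from *Nr5a1* and the ranking genes. Of the 187, 101 (54.0%) belonged to the Leydig set, which held 229 (2.995%) of the genes counted. Of the 122, 66 belonged to the progenitor set, which held 825 of the genes counted. Genes of other sets were also past the fold higher, and a gene could belong to several sets. They were 52 of 211 counted in the Sertoli set, 24 of 188 in the endothelial and 14 of 115 in the surface epithelium set. The immune set had 17 of 283 and the germ set 13 of 222. Past the fold lower were 6, 6, 16, 6 and 11 genes in the same order. Over all genes 2.45% were higher and 1.6% lower. Higher in the 400 pairs were 7 of 164, 4 of 156, 2 of 92, 0 of 247 and 3 of 178, and lower were 6, 4, 9, 7 and 8. Of the Leydig set, which the choice of pairs limits, 12 of 176 were higher there and 5 lower. Over all 6948 genes counted in these pairs 0.878% were higher and 1.24% lower. The counts over all genes fell to 84 and 78 when the first 1500 nuclei were taken and rose to 609 and 454 with the first 3500. In the 400 pairs there were 61 higher and 86 lower. Against the 1564 unpaired *Nr5a1*- nuclei, which were not matched on depth and were compared after the values had been seen, 148 of the 7645 genes (1.94%) were at least 1.5 times higher and 50 (0.654%) lower. Of these, 108 and 32 were also past the fold against partners.

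The leading genes outside the lists were mostly Leydig genes of few nuclei. *Rbm47*, an RNA-binding protein gene, was 14.3 times higher (7.76 to 29.2), with a UMI in 58 *Nr5a1*+ nuclei and 9 partners, but 4.63 times higher (3.58 to 6.01) than in unpaired *Nr5a1*- nuclei. It was seen in 12 and 8 nuclei of the 400 pairs (ratio 1.78, 0.740 to 4.56). *Nckap5* was 11.2 times higher, in 66 and 40 nuclei, with 70 of its 705 UMIs in 1 nucleus. *Oca2*, which acts in melanosomes, was 8.45 times higher, in 30 and 8 nuclei. The ratios of *Nckap5* and *Oca2* in the 400 pairs were 0.738 (0.449 to 1.20) and 0.286 (0.029 to 1.5). *Fam129a*, *Kcnip4* and *Pde8b*, a phosphodiesterase that breaks down cyclic AMP, had ratios of 7.63, 5.37 and 5.21 and stood at 2199, 5433 and 685 CPM in the Leydig reference. *Fam129a* was seen in 81 and 41 nuclei, *Kcnip4* in 69 and 51 with 128 of its 800 UMIs in 1 nucleus, and *Pde8b* in 46 and 21. Their intervals held 1 in the 400 pairs, with ratios of 1.09 (0.711 to 1.67), 1.26 (0.956 to 1.665) and 1.72 (0.934 to 3.27). *Pak3*, a kinase, had 6.44, in 84 and 48 nuclei, and 1.89 (1.35 to 2.67) in the 400 pairs, where it was seen in 38 and 38 nuclei. It was high in both Leydig and Sertoli nuclei, at 1034 and 1293 CPM. The noncoding *8030451A03Rik* had 5.19 (4.18 to 6.50), and 1.67 (1.27 to 2.21) in the 400 pairs, where it was seen in 71 and 52 nuclei. Against the unpaired nuclei the ratios of these genes ran from 3.799 for *Pde8b* (2.89 to 5.005) to 11.9 for *Oca2* (7.49 to 19.7).

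*Aldh1a7*, an aldehyde dehydrogenase, was at 29.3 CPM in *Nr5a1*+ nuclei and 2.12 CPM in partners (ratio 13.9, 6.47 to 35.4), with a UMI in 30 and 7 nuclei. It was at 7.07 CPM in the unpaired *Nr5a1*- nuclei, a ratio of 4.14 (3.01 to 5.73). In the 400 pairs it was seen in 16 and 5 nuclei, a ratio of 13.8 (5.64 to 43.8), with 16 of its 69 UMIs in a single nucleus. With 69 and 5 UMIs there, it was under the minimum of 100 UMIs in these pairs. It stood at 157 CPM in the Leydig reference. *Ccdc85a*, which encodes a coiled-coil protein, was at 68.0 and 10.9 CPM (ratio 6.25, 4.38 to 9.15), in 39 and 11 nuclei, above the Leydig reference at 19.7 CPM. The unpaired nuclei held it at 18.55 CPM, a ratio of 3.665 (3.0 to 4.48). In the 400 pairs its ratio was 4.34 (2.99 to 6.46), in 22 and 10 nuclei, and a single *Nr5a1*+ nucleus held 33 of its 152 UMIs there.

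The leading lower genes were also seen in few nuclei, and several were lower than in partners without being as low against the unpaired *Nr5a1*- nuclei. *Kcnq5*, a potassium channel gene, was at 20.5 and 60.4 CPM (ratio 0.34, 0.254 to 0.45), in 20 and 36 nuclei, and is high in the Sertoli reference (859 CPM). *Fap*, a protease of activated fibroblasts, was at 10.6 and 26.6 CPM (ratio 0.398, 0.261 to 0.595), in 23 and 48 nuclei. *Dab1*, a reelin adaptor, had 0.422 (0.361 to 0.492) in 84 and 109 nuclei, and *Foxp2*, a forkhead factor, 0.435 (0.345 to 0.546) in 47 and 81. *Sulf1*, which trims heparan sulphate, had 0.481 (0.399 to 0.577) in 67 and 114, and *Fanci*, of DNA repair, 0.448 (0.299 to 0.661) in 32 and 70. The others, *Ncam2*, *Zfp804b*, *Sema3a* and *Galntl6*, had ratios of 0.364 to 0.465. A single partner held 52 of the 121 *Ncam2* UMIs of all partners, and 66 of the 407 of *Zfp804b*. All 10 were under 0.65 in the 400 pairs, which have the same partners, so this is no separate sign of a drop. Against the unpaired nuclei the ratio was 0.968 (0.672 to 1.37) for *Ncam2*, 1.05 (0.753 to 1.44) for *Galntl6* and 0.728 (0.499 to 1.04) for *Fanci*, whose intervals held 1. It was 0.818 (0.689 to 0.9675) for *Zfp804b*, 0.707 (0.596 to 0.834) for *Sulf1* and 0.629 (0.424 to 0.911) for *Fap*. *Kcnq5*, *Foxp2*, *Dab1* and *Sema3a* had 0.313, 0.444, 0.471 and 0.507 there.

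In 21 of the 7645 counted genes the level in *Nr5a1*+ nuclei was at least 1.5 times that of partners and of the Leydig reference. Both intervals were above 1. In 8 of the 7645 it was under both. Of all genes past the fold against partners, 108 of 187 higher and 32 of 122 lower were also past it against the unpaired *Nr5a1*- nuclei. The same held for 8 of the 21 genes and 4 of the 8. Besides *Ccdc85a*, these were named after their values had been seen. *Cxxc5*, a zinc finger gene, was at 23.9, 11.2 and 7.76 CPM in *Nr5a1*+ nuclei, partners and Leydig nuclei, with a UMI in 66 and 36 nuclei of the first 2, and at 156 CPM in the Sertoli reference, but also at 21.7 CPM in the unpaired nuclei (ratio 1.10, 0.837 to 1.43). *Hapln1*, a link protein of the matrix, was at 20.5, 9.97 and 7.76 CPM, in 49 and 25 nuclei. *Axin2*, a target of Wnt signals, was at 24.5, 15.7 and 8.06 CPM, in 68 and 47 nuclei, with a ratio to partners of 1.38 (0.934 to 2.04) in the 400 pairs. Some of the 21 were Sertoli genes, such as *Erbb4* with 4309 CPM in the Sertoli reference and 47 of its UMIs in 1 nucleus.

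Over the 2500 progenitor nuclei thinned to 2000 UMIs, the genes most like *Nr5a1* were Leydig genes with weak correlations. Spearman's rho was 0.166 for *Lhcgr*, 0.153 for *Acsbg1*, 0.149 for *Slc7a8*, 0.142 for *Elmo1* and 0.141 for *Fam129a*, and the next 5, *Vsnl1*, *Pak3*, *Stambpl1*, *Klhl14* and *Smoc1*, were at 0.14 to 0.132. All nuclei share 1 library and 1 depth, and correlations this weak in sparse counts are given as a description.

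The *Nr5a1* locus, taken as the region within 100 kb of the distal start, was more open in *Nr5a1*+ nuclei. This wider region was used after values had been seen. At the starts alone the intervals over all pairs held 1, as given below. The gene lies on the minus strand of chromosome 2 with starts at 38714542 and 38712234 (mm10). Over the 23 peaks within 100 kb of the distal start, *Nr5a1*+ nuclei held 474 fragments and partners 368, a ratio, scaled to all fragments, of 1.30 (1.13 to 1.49). Against all 2032 *Nr5a1*- nuclei, partners included and without pairing, this ratio was lower, at 1.16 (1.05 to 1.29). A fragment was present in 58.1% of *Nr5a1*+ nuclei and 48.5% of partners. In the 400 pairs there were 417 and 312 fragments, a ratio of 1.33 (1.14 to 1.54), and in the 54 Leydig-rich nuclei 43 fragments against 47 in their partners (ratio 1.06, 0.686 to 1.64). The ratio was 1.28 (1.09 to 1.49) for nuclei with 1 *Nr5a1* UMI, 1.22 (0.809 to 1.84) with 2 and 1.59 (0.963 to 2.665) with 3 or more, and the last 2 intervals held 1. In the 182 pairs without *Cyp11a1*, *Hsd3b1* or *Lhcgr* UMIs it was 1.275 (1.02 to 1.60), and in 50 pairs with none of the 4 markers it was 1.02 (0.669 to 1.56). With pairs matched on cuts as well it was 1.175 (1.03 to 1.35).

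At the 3 peaks within 1 kb of either start there were 98 fragments in *Nr5a1*+ nuclei and 80 in partners, a ratio of 1.24 (0.91 to 1.68), and 1.09 (0.78 to 1.53) in the 400 pairs. By cuts the starts held 106 and 85.4 cuts when scaled like CPM to all cuts in peaks, a ratio of 1.24 (0.993 to 1.56). The ratio of cuts was 1.28 (1.02 to 1.61) with pairs matched on cuts as well, 1.34 (1.12 to 1.61) with the first 3500 nuclei, 1.39 (1.21 to 1.60) for peaks within 5 kb, and 0.61 (0.287 to 1.24) in the 50 pairs without any Leydig marker UMI. The peak over the proximal start had 30 and 19 fragments (ratio 1.59, 0.867 to 2.99), and by cuts its ratio was 1.69 (1.075 to 2.69). The peak between the starts had 18 and 11 fragments (ratio 1.65, 0.738 to 3.86). The peak over the distal start had 50 fragments in each group (ratio 1.01, 0.667 to 1.52), and *Nr5a1*+ nuclei lay under the Leydig reference there, with a ratio of 0.433 (0.293 to 0.637).

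The peak 4327 bp upstream, whose central sequence is printed above, had 73 fragments in *Nr5a1*+ nuclei and 47 in partners (ratio 1.57, 1.07 to 2.31), and 67 and 37 in the 400 pairs (ratio 1.80, 1.19 to 2.76). It was open in 14.96% of *Nr5a1*+ nuclei and 8.97% of partners. The intron peak at -5237 bp had 47 and 30 fragments (ratio 1.58, 0.978 to 2.59), and 46 and 24 in the 400 pairs (ratio 1.90, 1.14 to 3.26). At this peak *Nr5a1*+ nuclei were above the Leydig reference too, which held 12 fragments (ratio 2.17, 1.13 to 4.50). Another peak, at -25512 bp and past the end of the gene, had 21 and 9 fragments (ratio 2.35, 1.03 to 5.83). These 3 were singled out among 14 peaks after their values had been seen.

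Of the 8 locus peaks with at least 50 cuts over both groups, 4 were at least 1.5 times more open in *Nr5a1*+ nuclei and 0 at least 1.5 times less open, while over all 17534 peaks with that many cuts 8.32% were more open and 9.73% less open by that fold. The antisense RNA *Nr5a1os* had 12 UMIs in *Nr5a1*+ nuclei and 5 in partners (ratio 2.40, 0.787 to 8.70), too few to set them apart.

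**Figure D5:**
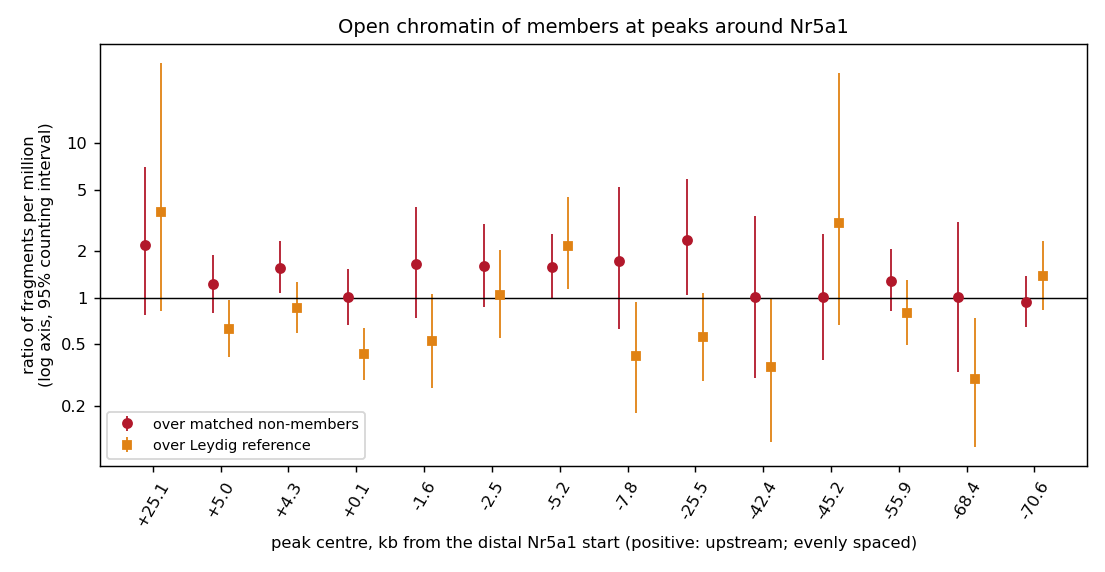
Ratio of fragments, scaled to all fragments, at the 14 peaks with at least 20 cuts around Nr5a1, ordered by the distance of the peak's centre from the distal start, for Nr5a1+ nuclei over partners and over the Leydig reference, on a log axis with 95% counting intervals. The peak at the start lies at 1.01 over partners and 0.433 over the Leydig reference, and the intron peak lies above 1 in both.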

How the data were processed

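Testes at E14.5 were profiled with the 10X multiome kit, giving 1 RNA and 1 ATAC library of the same nuclei. Per the labels, the authors ran Cell Ranger ARC 2.0.1 on mm10 and deposited raw counts (UMIs of each gene, and cuts of the transposase in each peak) for 9833 barcodes, with a list of unique fragments in which a count of supporting read pairs is given. They hold 122049390 UMIs over 32285 genes and 38243814 cuts over 109215 peaks, as whole numbers with no normalization. Nuclei were chosen, ranked and paired as described in the report. The nuclei, gene lists and comparisons were chosen with earlier results of these data known, and the Leydig-rich and Sertoli-rich nuclei, the 400 pairs without them, the use of the wider *Nr5a1* locus and the comparison with unpaired *Nr5a1*- nuclei after the values of this comparison had been seen.

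UMIs or cuts were summed per group and divided by the group's total, scaled to CPM. Levels have exact Poisson intervals, ratios exact conditional binomial intervals and shares Clopper-Pearson intervals, at 95%. Genes needed 100 UMIs over both groups and peaks 50 cuts, except around *Nr5a1*, where 20 were asked. With 1 library no p-value was derived. Reference nuclei were the 400 Leydig, 400 Sertoli, 250 germ, 300 surface epithelium, 60 endothelial and 40 immune nuclei with the highest marker share outside the 2500, and at most 21 were shared by 2 references. Named genes were those of the lists, locus peaks with 20 cuts, the 10 genes most correlated with *Nr5a1* and the 10 highest and 10 lowest ratios outside them whose interval left out 1. Doublet scores came from Scrublet in scanpy 1.11.5, no doublets were removed, and 2 genome bins of 10 kb in which over 1% of nuclei had 3 overlapping fragments were left out of that count. Gene symbols repeated in the table (40) were read at their first row. Sequences came from the GRCm38.p6 genome, within whose chromosome 2 (182113224 bases) all deposited peaks of that chromosome end. The fold and interval steps were tested on simulated data with numpy 2.4.6 and scipy 1.17.1. Those counts were drawn as independent Poisson counts, which the intervals assume. The test thus checks the code and does not cover UMIs gathered in single nuclei. Single values of a few listed genes are not reported here or plotted, though the counts of their lists include them.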

Additional observations from a re-analysis of the deposited data

How the results depend on the processing

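Ratios are of *Nr5a1*+ nuclei over partners. With all *Nr5a1*- nuclei weighted by depth in place of pairs, 277 genes were past 1.5-fold higher and 232 lower, with 10392 genes counted, and the Leydig gene set had 1.54. With the first 1500 nuclei the Leydig markers had 1.41, the Leydig gene set 1.19 and the Leydig peak set 1.13, with 84 genes higher and 78 lower. With the first 3500 they had 4.29, 2.72 and 1.74, with 609 and 454 genes, and *Nr2f2* had 0.828. With 2 or more *Nr5a1* UMIs they had 4.97, 2.83 and 1.895, with 291 and 277 genes, Sertoli markers 1.66 and *Nr2f2* 0.663. In pairs with no Leydig marker UMI, the *Nr5a1* starts had 0.61, the Leydig gene set 1.10, the Leydig peak set 1.16 and *Nr2f2* 0.832, with 41 and 36 genes, and 50 pairs limit their precision. In pairs with no Sertoli marker UMI the Leydig markers had 2.39 and the Leydig gene set 1.54.

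At a minimum of 20 UMIs 873 genes were higher and 646 lower, at 300 UMIs 68 and 38, and at 2-fold 63 and 10. Matching on cuts as well gave 1.26 for the Leydig peak set. Sets made at 8-fold gave 2.18 for Leydig genes and 1.74 for Leydig peaks. In the 400 pairs, chosen after seeing the data, Leydig markers had 1.16, Leydig genes 1.05, Leydig peaks 1.18 and *Nr2f2* 0.987, with 61 genes higher and 86 lower. In pairs with no *Cyp11a1*, *Hsd3b1* or *Lhcgr* UMI, also chosen afterwards, Leydig genes had 1.02 and Leydig peaks 1.16, with 55 genes higher and 92 lower. With the unpaired *Nr5a1*- nuclei in place of partners, also chosen afterwards, 148 genes were higher and 50 lower. The share of progenitor nuclei with *Nr5a1* was 8.90% when thinned to 3000 UMIs, with 0% of 245 germ nuclei, which allows up to 1.49%, and 18.7% unthinned. Without the highest 10% of doublet scores 0% of 250 germ nuclei held it, which allows up to 1.465%, and the Leydig markers, gene and peak sets stayed at 2.19, 1.56 and 1.40. The cause of these moves was not tested. The study's RNA thresholds, and CPM without mitochondrial genes and *Malat1*, changed no ratio beyond its interval. No paired analysis was possible because each assay has 1 library. Depth limits the *Nr5a1* starts, where 98 and 80 fragments stand behind the ratio.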
